A study of Mus musculus with 6 samples.

Results

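The TRAF adaptor family was followed in mouse bone marrow macrophages whose only TNF-responsive receptor was a chimera of TNF receptor 1 and RANK, with or without an intact IVVY motif. Its members were taken by name as Traf1, Traf2, Traf3, Traf4, Traf5, Traf6, Traf7 and Tank, 8 genes. They were represented by every probe set of the Affymetrix Mouse Genome 430 2.0 array whose annotation gives 1 symbol, that of a member. This rule found 15 probe sets of 45037 on the array, for 7 of the 18193 genes with such a probe set. Traf3 had no such probe set and was not analysed here. Where a gene had several probe sets, the one with the highest mean over the 6 arrays represents it, and the others are given beside it. The values are intensities on a linear scale, and those of different probe sets are not set against each other, because probes differ in brightness.

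The mutant group (n = 3 arrays) carried the chimeric receptor with inactivating mutations in the IVVY motif of RANK's inner part, and the wild-type group (n = 3 arrays) carried it with that motif intact. The outer part of the receptor was that of mouse TNF receptor 1, and its membrane and inner parts were those of mouse RANK. All cells were c57BL/6 bone marrow macrophages of TNFR1-/-R2-/- mice, which lack both TNF receptors, and they received the receptor by retrovirus and 3 days of selection in 2 ug/ml puromycin. For 24 hours all were then given 44 ng/ml of M-CSF and 10 ng/ml of TNF, so no array shows the cells before TNF. Each array was hybridised with RNA pooled from 6 dishes, and each of 3 assays, run independently, gave 1 array per group. The labels give neither the age and sex of the mice nor whether the assays used different mice, and p-values therefore measure the spread between these 6 arrays. The question was which macrophage genes depend on the IVVY motif.

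TRAF proteins are cytoplasmic adaptors that join receptors of the TNF receptor and Toll-like receptor families to kinases and ubiquitin ligases. Most carry a carboxy-terminal TRAF domain, which binds receptor tails, and an amino-terminal RING domain, which TRAF1 lacks, while TRAF7 has WD40 repeats in place of the TRAF domain. RANK binds several TRAFs through short motifs in its tail, and TRAF6 among them is needed for osteoclast formation. The IVVY motif is a separate stretch of that tail. TANK binds TRAFs and the kinases TBK1 and IKK epsilon and tempers signals to NF-kB, a transcription factor that in turn drives genes such as Traf1.

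The members lie at separate loci, given here with the RefSeq gene table of GRCm38.p6. On chromosome 2 are Traf2 (chr2:25517982-25546940), Traf1 (chr2:34941750-34961812), Tank (chr2:61578557-61654171) and Traf6 (chr2:101678420-101701668). Traf5 lies at chr1:191997203-192092599, Traf4 at chr11:78158423-78165579, Traf3 at chr12:111166321-111267155 and Traf7 at chr17:24508850-24527938. The positions of the probe sets within these genes were not used here.

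The promoters shown are those of Traf1 and Traf2, whose representative probe sets were separated between the groups. Also shown is the promoter of Tank, the one measured member with a match to an NF-kB consensus. RefSeq (GRCm38.p6) gave 11 start sites for the 8 genes, and each window runs from 250 bases before to 50 after the start site, 5′ to 3′ on the gene's strand. The NF-kB consensus of 10 letters and the AP-1 motif TGANTCA were searched on both strands, and capitals mark the matches. The lines give Traf1 (chr2:34961723-34962022, minus strand), Traf2 (chr2:25546891-25547190, minus strand) and Tank (chr2:61592847-61593146, plus strand).
Traf1: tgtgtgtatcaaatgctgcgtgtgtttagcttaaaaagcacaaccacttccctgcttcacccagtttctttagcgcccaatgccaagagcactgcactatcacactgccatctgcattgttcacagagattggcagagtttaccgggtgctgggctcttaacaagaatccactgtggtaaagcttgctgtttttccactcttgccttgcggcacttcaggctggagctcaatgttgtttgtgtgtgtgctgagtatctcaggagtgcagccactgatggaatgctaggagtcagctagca
Traf2: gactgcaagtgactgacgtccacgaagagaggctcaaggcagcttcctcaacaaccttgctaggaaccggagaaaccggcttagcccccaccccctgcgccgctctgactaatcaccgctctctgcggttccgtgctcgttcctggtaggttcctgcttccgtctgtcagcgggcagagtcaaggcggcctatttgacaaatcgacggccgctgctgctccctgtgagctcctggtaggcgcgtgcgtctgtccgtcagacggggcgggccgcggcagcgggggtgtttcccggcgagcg
Tank: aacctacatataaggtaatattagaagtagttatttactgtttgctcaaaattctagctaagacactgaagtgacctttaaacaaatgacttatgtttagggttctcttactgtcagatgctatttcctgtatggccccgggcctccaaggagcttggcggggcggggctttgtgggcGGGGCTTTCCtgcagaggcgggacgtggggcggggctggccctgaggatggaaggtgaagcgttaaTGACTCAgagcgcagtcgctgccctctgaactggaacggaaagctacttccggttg
The Tank window held GGGGCTTTCC, an NF-kB match starting 72 bases upstream of the start site, and TGACTCA, an AP-1 match starting 6 bases upstream. Of the 4 Tank windows, another that starts nearby held the same sites, and those at chr2:61578307-61578606 and chr2:61578336-61578635 held 0 matches to either motif. Traf3, unmeasured here, held GGGGATTTCC starting 10 bases upstream. No letters of either motif were found in the Traf1 and Traf2 windows, which says nothing of sites outside them. Of all 32851 RefSeq promoter windows of this length, 4.51% held the NF-kB consensus and 7.81% the AP-1 motif, without overlap between them in Tank. The Traf1 window had a G and C content of 48.7% and the Traf2 window of 64%.

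Traf1 had the widest separation between the groups of the members measured, and Traf2 a small and even one. On the brightest Traf1 probe set and the single Traf2 probe set, every mutant array lay below every wild-type array. The groups overlapped on the second Traf1 probe set. Traf7 was slightly lower in every same-numbered pair, with overlapping groups. Tank, Traf5 and Traf6 differed in direction between assays on their brightest probe sets, and Traf4 read near the bottom of the array throughout. No member passed the test across the whole array.

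Differences were taken as mutant minus wild type on log2(intensity + 16). They were tested with limma, without the assay as a block, over the 22497 probe sets that lay above their array's median on at least 3 arrays. A Benjamini-Hochberg adjusted p under 0.05 counted as passing. Of the 7 members with a probe set, 6 were kept by this filter, with 11 of the 15 probe sets, and Traf4 was not. By limma 0 of these 11 probe sets passed, against 0% of all 22497, and their adjusted p was 0.99998 in the fit without a block. At an unadjusted p under 0.05 there were 3 of the 11 (Traf1, Traf2 and the dimmer Tank probe set), against 198 of all 22497, or 0.88%. That background count was 757 without mutant array 3 and 668 without both arrays of assay 3. The mutant mean was below the wild-type mean for 5 of the 6 genes and above it for 1, where 4856 of all 10372 genes were lower and 5516 higher. Their differences had a median of -0.23 on the log2 scale, against 0.01 for all 10372 genes tested. The median over the 6 genes was -0.42 without wild-type array 1, -0.11 without wild-type array 3, and -0.13 without both arrays of assay 3. In assays 1, 2 and 3 the median over the 6 genes was -0.19, -0.17 and -0.44. Without overlap between the groups were 2 of the 6, both lower, where 1.96% of all genes were lower and 1.36% higher without overlap. Lower in every same-numbered pair were 3 of the 6 (Traf1, Traf2 and Traf7), where 12% of all genes were lower in every pair and 14.5% were higher. The count without overlap was 4 without mutant array 1 or without both arrays of assay 1, as Tank and Traf7 no longer overlapped there. Fewer arrays are separated more easily, and the share of all genes was not counted for these smaller sets.

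**Figure D1:**
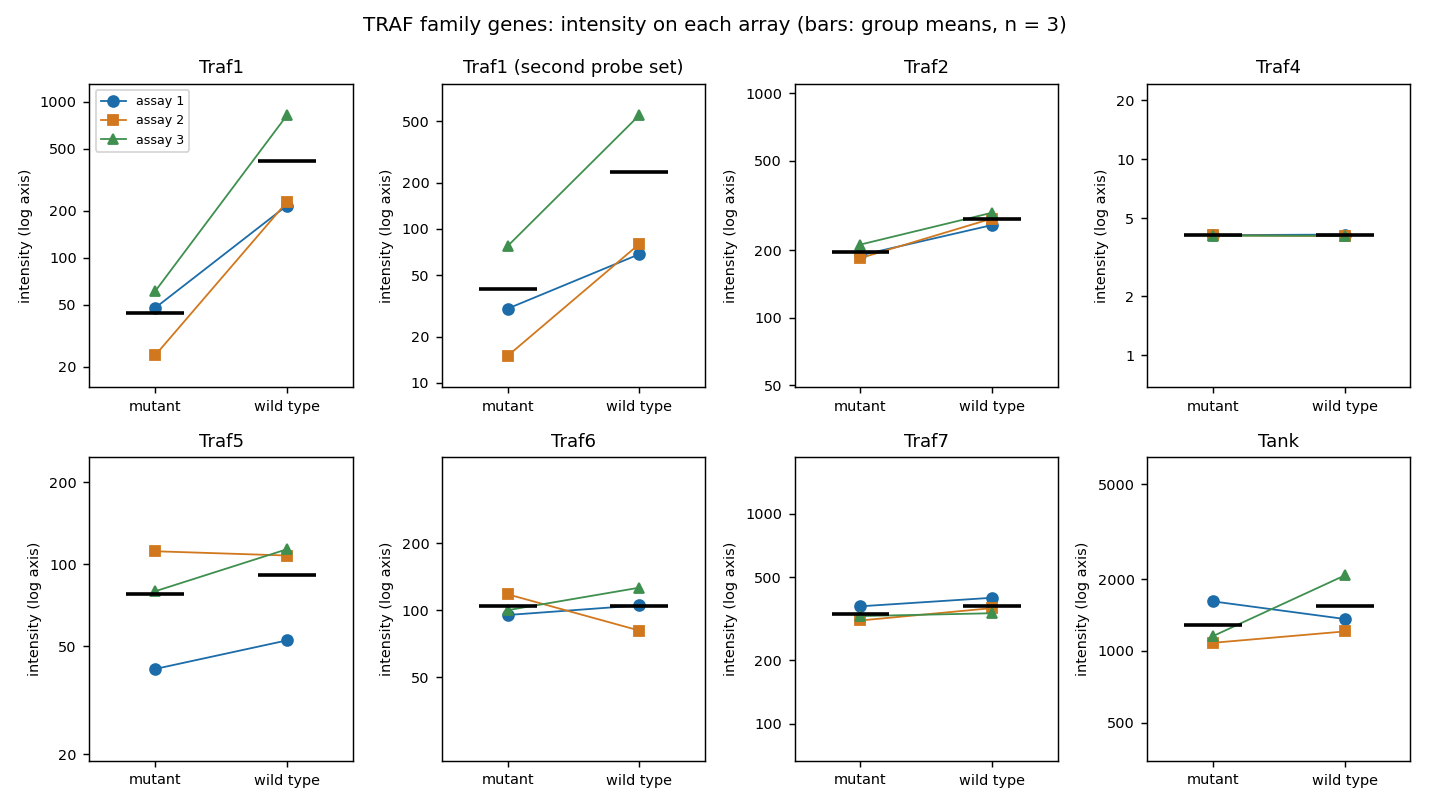
Intensity (log axis) on each array for the representative probe sets of the 7 measured genes and the second Traf1 probe set, mutant left and wild type right; lines join the arrays of 1 assay and black bars are group means (n = 3). The representative Traf1 and Traf2 probe sets are lower on all mutant arrays, and the groups overlap on the second Traf1 probe set. The lines of Tank, Traf5 and Traf6 cross or turn between assays.

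Traf1 encodes an adaptor that binds TRAF2 and modulates its signals, and it is itself a classical NF-kB target gene. Its brightest probe set read 47.7, 23.7 and 61.0 on mutant arrays 1, 2 and 3, against 215, 227 and 815 on wild-type arrays 1, 2 and 3. Every mutant value lay below every wild-type value, and wild-type array 3 stood far above the other 2. Within the assays the wild-type intensity was 4.52, 9.59 and 13.4 times the mutant one in assays 1, 2 and 3. On the log2 scale the pair differences were -1.86, -2.62 and -3.43. The mean difference was -2.64 ± 0.58 (SE), a 6.22-fold lower level on that scale (limma, adjusted p = 0.99998). Only 6 of the 22497 probe sets had a lower difference. Group accounted for 79.6% of the sum of squares of this probe set over the 6 arrays, and assay for 15.7%.

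The second Traf1 probe set was less separated. It read 30.4, 15.03 and 77.7 on mutant arrays 1, 2 and 3, against 68.6, 80.0 and 549.6 on wild-type arrays 1, 2 and 3. The groups overlapped, since mutant array 3 lay above wild-type array 1, but each mutant array lay below its own wild-type partner. The pair differences of -0.87, -1.63 and -2.59 had the same order over the assays as those of the first probe set. Its mean difference was -1.70 ± 0.87 (SE; limma, adjusted p = 0.99998), and assay accounted for 50.9% of its sum of squares and group for 41.9%. The wild-type intensity was 2.26, 5.33 and 7.08 times the mutant one in assays 1, 2 and 3. The mutant values of the 2 probe sets, at 15.03 to 77.7, were low enough for the added 16 to change the size of the fold. With a pseudocount of 64 the difference of the first was -1.96. Without wild-type array 3 it was -2.03.

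The levels of other cell types were read beside Traf1, because B cells, T cells and dendritic cells also express it. Of the 6 B cell markers measured, 5 never exceeded an intensity of 16, and Cd79a, Pax5 and Blk were near the bottom of the array. The summed B cell markers were 89.8 to 321 on the mutant and 107 to 258 on the wild-type arrays, most of it Cd22, the one B cell marker above 16. Of the 7 T cell markers, 5 never exceeded 16, with Cd3e and Cd3d among them, and their sums were 59.9 to 92.6 on mutant and 60.7 to 86.6 on wild-type arrays. Of the 6 dendritic cell markers 3 never exceeded 16, the sums were 245 to 593 on mutant and 314 to 553 on wild-type arrays, and Ccr7 read 103 on wild-type array 3 and at most 6.50 elsewhere. Neutrophil markers summed to 157 to 679 on mutant and 241 to 706 on wild-type arrays, with 6 of 7 never above 16. The labelled cell type was borne out by its markers: all 10 macrophage genes were above 16, with sums of 196683 to 220930.0 on mutant and 199145 to 211015 on wild-type arrays. The 8 stromal markers summed to 4685 on mutant and 3325 on wild-type array 3, against 62.4 to 160 on the other arrays. Traf1 had its highest reading and widest pair difference in assay 3, and the part of stromal cells in them was not tested.

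The summed level of the osteoclast markers was lower on all 3 mutant arrays, as was Traf1 on its brightest probe set. Their 10 genes summed to 1896, 2384 and 2789 on mutant arrays 1, 2 and 3, against 12816, 9406 and 27737 on wild-type arrays 1, 2 and 3. Wild-type array 3 was the highest for both Traf1 and this sum. Acp5, Ctsk and Mmp9 make up most of the sum on the wild-type arrays, and the markers did not all behave alike. Nfatc1 read 775, 906 and 906 on mutant arrays 1, 2 and 3, against 817, 869 and 861 on wild-type arrays 1, 2 and 3, with overlapping groups. Atp6v0d2 also overlapped, at 298 to 554.7 on mutant and 447 to 1689 on wild-type arrays. Oscar and Itgb3 stood above their other readings on wild-type array 3 alone, at 29.5 and 10.6. The part of these cells' state in the Traf1 values was not tested. In bulk RNA, fewer cells of a type and less RNA per cell cannot be told apart.

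Traf2 encodes a ubiquitin ligase and adaptor that brings the cIAP proteins to TNF receptors. Its single probe set read 190, 184 and 212 on mutant arrays 1, 2 and 3, against 259, 277 and 294 on wild-type arrays 1, 2 and 3. The groups did not overlap, and the arrays within each group lay close together. The group means were 195 ± 14.6 for the mutant and 277 ± 17.6 for the wild type (SD over 3 arrays each). The pair differences of -0.42, -0.55 and -0.44 were nearly the same in the 3 assays. The mean difference was -0.47 ± 0.10 (SE), 1.38-fold on the log2 scale (limma, adjusted p = 0.99998). Group accounted for 90.6% of its sum of squares and assay for 8.09%. By unadjusted p Traf2 ranked 25 and Traf1 27 among the 22497 probe sets, although 602 probe sets had a lower difference than Traf2.

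Traf5 encodes an adaptor of RANK, CD40 and other receptors that is close to TRAF2 in sequence. Its representative probe set read 41.2, 112 and 79.6 on mutant arrays 1, 2 and 3, against 52.5, 108 and 114 on wild-type arrays 1, 2 and 3. The groups overlapped, and both arrays of assay 1 were the lowest of their group. Assay accounted for 89.8% of its sum of squares and group for 5.52%. The pair differences were -0.26, 0.05 and -0.44, with a mean of -0.22 ± 0.40 (SE; limma, adjusted p = 0.99998). The second probe set read 11.98 to 12.3 on mutant and 11.2 to 12.9 on wild-type arrays, below the added 16, and showed no separation.

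Traf6 encodes the ubiquitin ligase through which RANK activates TAK1 and NF-kB. It had 5 probe sets, which disagreed. The brightest read 95.1, 118 and 99.97 on mutant arrays 1, 2 and 3, against 105, 80.9 and 126 on wild-type arrays 1, 2 and 3. Mutant was above wild type in assay 2 and below it in assays 1 and 3, and the mean difference was 0.02 ± 0.17 (SE; limma, adjusted p = 0.99998). The next probe set read 87.8, 47.7 and 42.5 in the mutant against 87.8, 24.4 and 77.0 in the wild type. It repeated the opposite directions of assays 2 and 3, with pair differences of 0.66 and -0.67, and its mean difference was 0.00 ± 0.44 (SE). The third read 15.3, 11.3 and 23.6 in the mutant against 17.7, 15.5 and 25.4 in the wild type. It was dim and lower in every pair, by -0.11, -0.20 and -0.07. The remaining 2 probe sets fell below the filter, at no more than 8.49 and 3.62 on any array.

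Tank also had probe sets that differed. The brighter one read 1614, 1082 and 1155 on mutant arrays 1, 2 and 3, against 1362, 1207 and 2074 on wild-type arrays 1, 2 and 3. The groups overlapped and the direction changed between assays, with pair differences of 0.24, -0.16 and -0.84. The mean difference was -0.25 ± 0.27 (SE; limma, adjusted p = 0.99998), and without both arrays of assay 3 it was 0.04. The dimmer probe set read 28.5, 21.2 and 25.2 on mutant arrays 1, 2 and 3, against 44.0, 32.98 and 76.7 on wild-type arrays 1, 2 and 3. Here all mutant values lay below all wild-type values. Its pair differences were -0.43, -0.40 and -1.17, and its mean difference was -0.67 ± 0.26 (SE; limma, adjusted p = 0.99998). Both Tank probe sets had their lowest pair difference in assay 3. In assay 3 the 8 stromal markers, among them Sparc and Col1a2, summed to 4685 on the mutant and 3325 on the wild-type array, against 65.1 and 160 on the other mutant and 62.4 and 82.6 on the other wild-type arrays. The part of stromal cells in the values of assay 3 was not tested.

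Traf7 encodes a RING and WD40 protein that binds the kinase MEKK3. Its single probe set read 362, 310.2 and 326 on mutant arrays 1, 2 and 3, against 398, 355 and 336 on wild-type arrays 1, 2 and 3. Each mutant array was below its partner, while mutant array 1 lay above wild-type arrays 2 and 3. The pair differences were -0.13, -0.19 and -0.04, with a mean of -0.12 ± 0.11 (SE; limma, adjusted p = 0.99998). Assay accounted for 64% of its sum of squares and group for 29.0%.

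Traf4, an adaptor known mainly from epithelial and neural tissue, was read by 2 probe sets that fell below the filter. They read 4.08 to 4.10 and 3.72 to 3.73 on mutant arrays, and 4.05 to 4.13 and 3.69 to 3.74 on wild-type arrays. Both stayed near the bottom of every array, and these values show no level that could be compared.

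**Figure D2:**
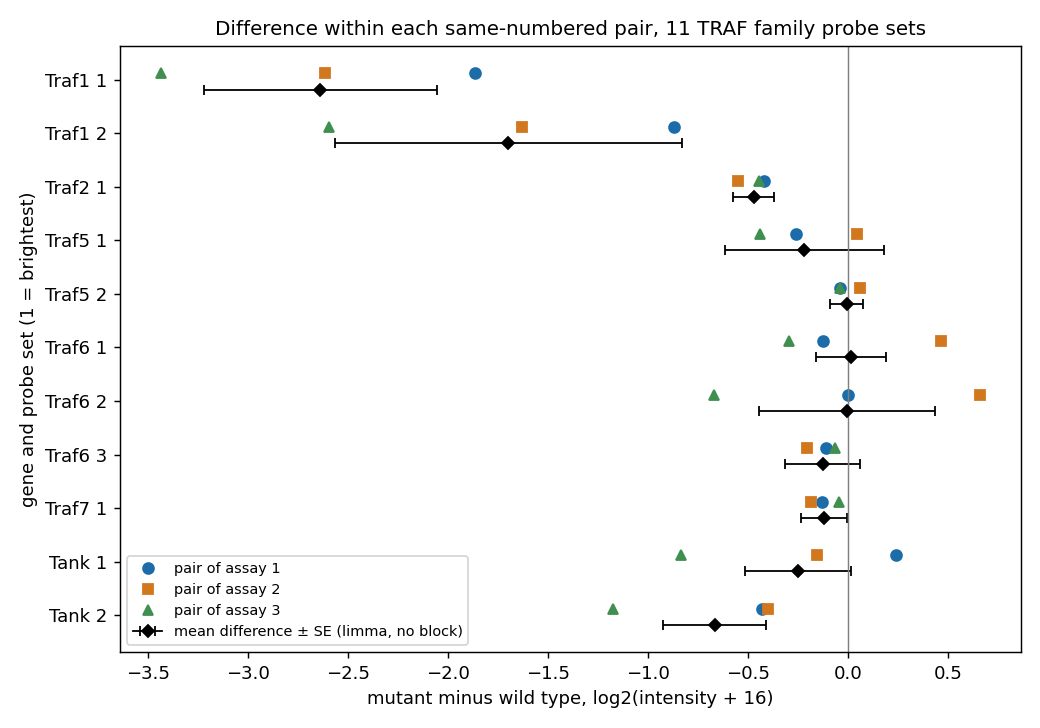
Mutant minus wild type on log2(intensity + 16) for the 11 kept probe sets (y axis, numbered from the brightest within a gene); coloured points are the pairs of assays 1, 2 and 3 and black diamonds the mean with its SE from limma without a block. All 3 points lie left of 0 for both Traf1 probe sets, Traf2, the third Traf6 probe set, Traf7 and the dimmer Tank probe set.

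The variation between arrays thus took different forms among the members. On the representative probe sets group held the larger share of the sum of squares for Traf1 and Traf2, at 79.6% and 90.6%. Assay held it for Traf5 and Traf7, at 89.8% and 64%. On the second Traf1 probe set assay held 50.9% and group 41.9%. For Traf6 and Tank neither share was large on the representative probe set, with assay at 18.04% and 35.9% and group at 0.187% and 15.4%. What remained for Traf6 and Tank held both group differences that varied between assays and the noise of the arrays. No group was repeated within an assay, so these shares cannot tell them apart. Assay has more levels than group, so its share tends to be larger where neither has an effect. The raw shares therefore do not rank the 2 sources against each other.

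Among the genes around the TRAFs, the ubiquitin enzymes and NF-kB subunits held the widest differences between the groups. The ubiquitin list held 22 genes, all tested, of which 16 had a mutant mean below and 6 above that of the wild type, and the median of the differences was -0.04 (log2). Without each array in turn that median lay between -0.15 and -0.083. Lower in every pair were 8 of the 22, against 12% of all genes, and 1, Sharpin, named after its values were seen, was higher in every pair. Birc2, which encodes the cIAP1 ligase carried by TRAF2, read 198, 244 and 432 on mutant arrays 1, 2 and 3, against 368, 399 and 773 on wild-type arrays 1, 2 and 3. Each mutant array was below its partner, by -0.85, -0.67 and -0.81, though the groups overlapped through mutant array 3. Tnip1, which encodes a partner of the deubiquitinase A20, read 748, 802 and 742 on mutant arrays 1, 2 and 3, against 810, 1174 and 1181 on wild-type arrays 1, 2 and 3, without overlap. Its log2 difference was -0.44 ± 0.18 (SE). The deubiquitinase gene Otub1 differed by -0.42 ± 0.24 on its brightest probe set and by -0.13 ± 0.27 on another. Ube2v1, a partner of the TRAF6 conjugating enzyme Ubc13, differed by -0.15 ± 0.09 without overlap on its brightest probe set. On another it differed by -0.10 ± 0.13, lower in 2 pairs and higher in 1. Named after its values were seen, Birc3, which encodes cIAP2, differed by -0.74 ± 0.54, with pair differences of -0.86, -1.09 and -0.28 and overlapping groups. Birc3 ranked 7 in its list by unadjusted p (limma), and its other kept probe set is not given here.

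Of 5 NF-kB subunit genes 4 were tested, and 3 had a lower mean. Nfkb2, the p100 subunit of the noncanonical pathway that TRAF2 and TRAF3 restrain, read 151, 238 and 162 on mutant arrays 1, 2 and 3, against 228, 631 and 268 on wild-type arrays 1, 2 and 3. Its pair differences were -0.55, -1.35 and -0.67, and its mean difference was -0.86 ± 0.42 (SE). A second Nfkb2 probe set differed by -0.51 ± 0.30 and was also lower in every pair. Relb, the partner of processed Nfkb2, differed by -0.54 ± 0.49, with pair differences of -0.42, -0.88 and -0.33. The canonical subunit genes Rela and Rel differed by -0.03 ± 0.23 and 0.05 ± 0.34 and went both ways over the pairs.

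Receptors and proximal adaptors were spread around 0, with 9 of 20 tested lower and 11 higher, a median of 0.01 (log2), and 1 gene lower and 2 higher in every pair. Tnfrsf12a, the TWEAK receptor, read 57.3, 36.0 and 33.1 on mutant arrays 1, 2 and 3, against 27.5, 31.1 and 31.8 on wild-type arrays 1, 2 and 3. The separation was carried by mutant array 1, and the mean difference was 0.31 ± 0.18 (SE), against 0.14 ± 0.15 on a dimmer probe set. Myd88, the adaptor of Toll-like receptors upstream of TRAF6, differed by -0.17 ± 0.12, the receptor gene Tlr2 by 0.22 ± 0.20 and Tnfrsf13b, the TACI receptor, by 0.17 ± 0.21.

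Kinases downstream of TRAFs showed 6 lower and 12 higher means among 18 tested, with a median of 0.02 (log2), of which 2 were below and 0 above their partner in every pair. Map3k5, the stress kinase ASK1 that TRAF2 binds, differed by 0.28 ± 0.23, Map3k1 by -0.10 ± 0.13, Mapk14, the p38 alpha kinase, by -0.11 ± 0.17 and Map2k6, one of its activators, by -0.08 ± 0.11. A second Map3k1 probe set differed by 0.10 ± 0.09, and the other kept Mapk14 probe sets by -0.49 ± 0.74 to -0.12 ± 0.16. Proteins that bind or resemble TRAFs had 8 lower and 9 higher means among 17 tested, with a median of 0.00, and over all pairs 1 was lower and 2 were higher. Sqstm1, the p62 scaffold that binds TRAF6, read 5205, 5409.7 and 6513 on mutant arrays 1, 2 and 3, against 5794, 8063 and 7700 on wild-type arrays 1, 2 and 3. Each mutant array was below its partner, and the mean difference was -0.32 ± 0.17 (SE). Siva1, a pro-apoptotic protein, differed by 0.41 ± 0.53, the ubiquitin ligase gene Trim37 by 0.23 ± 0.34 and Tifab by -0.19 ± 0.24. Siva1 was higher in every pair, by 0.56, 0.47 and 0.19, and its SE holds the spread between assays. The other kept Siva1 probe sets differed by 0.26 ± 0.60 to 0.40 ± 0.20, and that at 0.40 was also higher in every pair. Over the 5 lists 0 genes passed limma over all probe sets, and 0 had an unadjusted p under 0.05, where 1.14% of all genes did. With the assay as a block in limma 0 passed and 8 had an unadjusted p under 0.05 (5 ubiquitin, 2 NF-kB and 1 TRAF-binding gene), where 5.89% of all genes did.

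**Figure D3:**
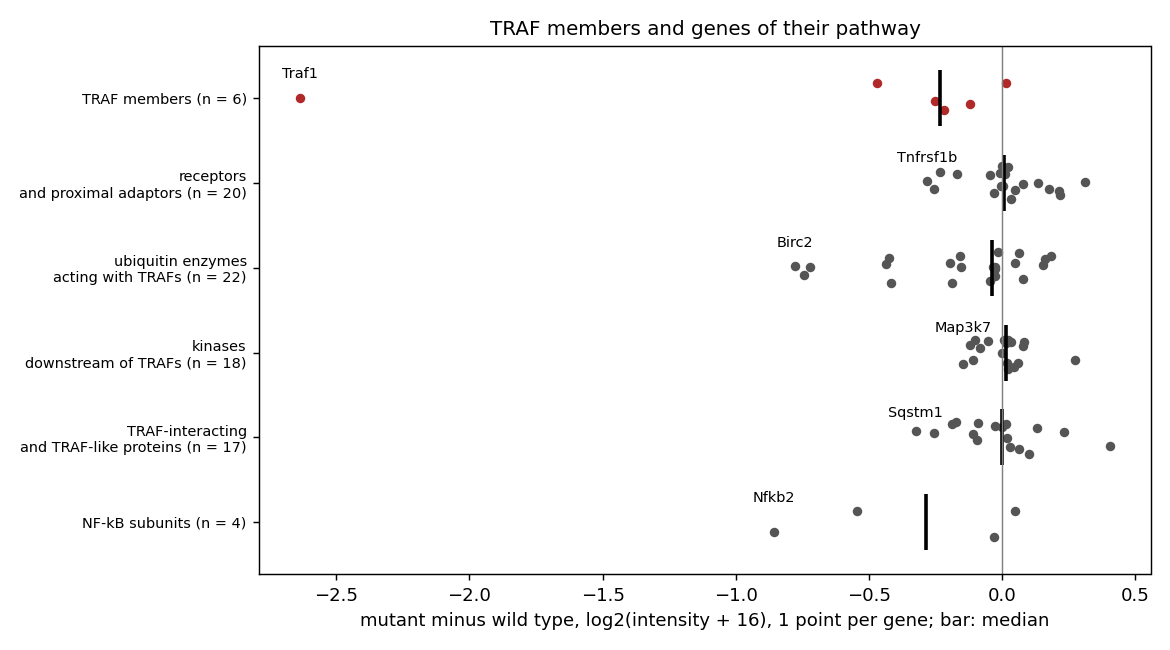
Mutant minus wild type on log2(intensity + 16), 1 point per gene, for the 6 tested TRAF members and 5 lists of pathway genes; black bars are medians, and the lowest gene of each row is named. Traf1 at -2.64 lies apart from all other points, the next lowest of which is Nfkb2 at -0.86.

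The genes whose profiles lay closest to a member were sought for members that spanned more than 1 log2 unit over the 6 arrays, which were Traf1 and Traf5. Likeness was the root mean square difference over 6 arrays between log2 profiles centred on their own means, among 10371 other genes. It is a description, and the arrays share assays in pairs. Closest to Traf1 were Dcstamp, the fusion receptor of osteoclast precursors, at 0.46 log2 units, Car2, the carbonic anhydrase of osteoclasts, at 0.49, and Mcemp1, a membrane protein of myeloid cells, at 0.51. Dcstamp read 12.7, 13.2 and 15.5 on mutant arrays 1, 2 and 3, against 71.8, 67.1 and 200.4 on wild-type arrays 1, 2 and 3. Car2 read 7.15, 7.13 and 9.44 on mutant arrays 1, 2 and 3, against 64.5, 49.9 and 576 on wild-type arrays 1, 2 and 3. Mcemp1 read 45.2, 9.43 and 78.3 on mutant arrays 1, 2 and 3, against 128, 114 and 335 on wild-type arrays 1, 2 and 3. All 3 shared with Traf1 the lower mutant arrays and the highest reading on wild-type array 3, which follows from their choice by likeness on these arrays.

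Closest to Traf5 were Gpatch8 at 0.083 log2 units, Cnksr3 at 0.11 and Crebl2 at 0.13. Gpatch8 read 161, 360 and 275 on mutant arrays 1, 2 and 3, against 164, 321 and 354 on wild-type arrays 1, 2 and 3. These 3 genes and Traf5 had their lowest readings in assay 1 in both groups, and their mutant and wild-type means differed little, by -0.07 ± 0.40 (SE) for Gpatch8, -0.06 ± 0.42 for Cnksr3 and -0.01 ± 0.35 for Crebl2. The likeness to Traf5 also follows from how these genes were chosen.

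**Figure D4:**
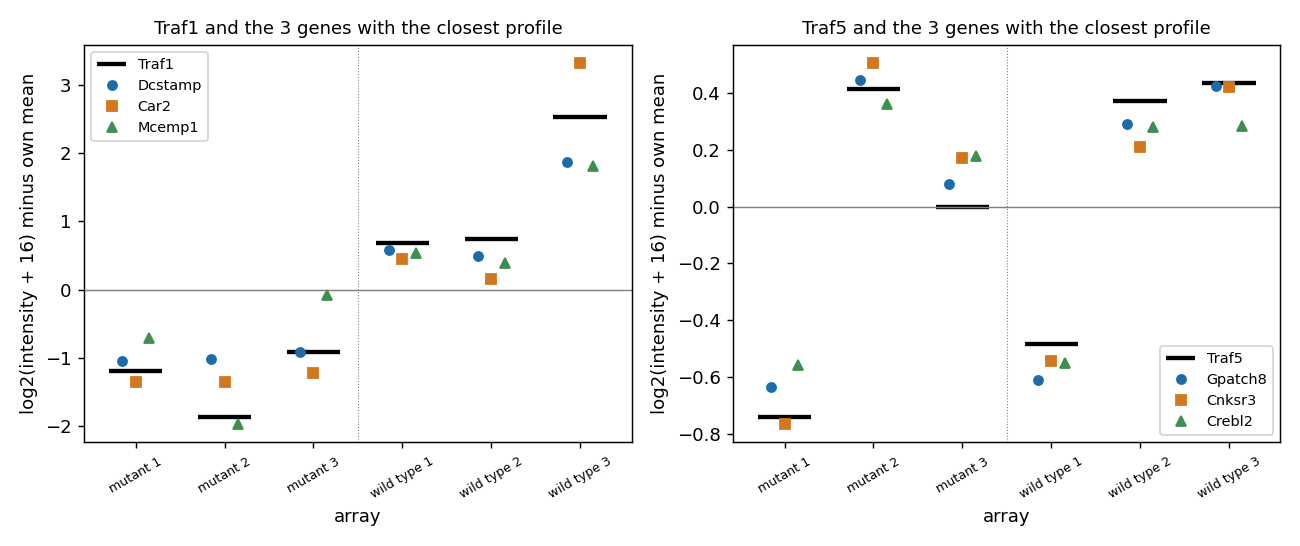
Log2(intensity + 16) minus each gene's own mean on the 6 arrays, mutant left and wild type right, for Traf1 (left panel) and Traf5 (right panel) as black bars and their 3 closest genes as points. Traf1 and its closest genes are highest on wild-type array 3, and Traf5 and its closest genes are lowest on the arrays of assay 1. The closest genes were chosen for likeness on these same arrays.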

How the data were processed

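The authors deposited intensities, 1 per probe set and array, on a linear scale. Per the submitters' processing notes GCOS and GCRMA were used, with versions and roles not given in the sources used here. Array 75th percentiles were 161 to 165 and medians 8.87 to 9.38 on the 6 arrays, and 42.8% to 44.1% of probe sets exceeded 16, so no normalization was added. Precision is limited by the number of arrays.

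Of 45101 probe sets 64 controls were left out, and 34945 of the rest had 1 gene symbol, 932 several and 9160 none. Symbols were checked through gene IDs in the RefSeq table (34741 found, 0 changed). Log2(intensity + 16) was tested with limma 3.58.1 (lmFit, eBayes) in R 4.3.3 on probe sets above the array median (percentile 50) on at least 3 arrays. On simulated data from these 22497 probe sets, limma without a block recovered 7 of 50 changed 2-fold and 34 of 50 changed 4-fold, and with the block 35 and 49. It called 0 unchanged probe sets without the block and 10 with it. Changes of 8- and 16-fold were planted in the same simulation, which eases the adjusted threshold. The noise was drawn from the variances of the blocked fit, so this recovery need not hold for the real arrays.

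The members and the lists were chosen with earlier results of these data known. Named were all members and their probe sets, up to 4 genes per list by unadjusted p, and the 3 closest profiles of each member spanning over 1 log2 unit. Same-numbered arrays deviated together (r of 0.671 to 0.845 over probe sets, against -0.618 to -0.0138 for other pairs). The labels describe independent assays, so pair differences were taken between same-numbered arrays. The main limma fit ignored these pairs, and the SE and adjusted p of each gene come from it unless a block is named. For Traf5 the SE was 0.396 in that fit and 0.124 with the fixed block, and for Traf6 0.174 and 0.179. Alternatives were another pseudocount (1 or 64), no filter or the 70th percentile, a fixed or random replicate block, quantile normalization, the mean of a gene's probe sets, and leaving out arrays or assays.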

Additional observations from a re-analysis of the deposited data

How the results depend on the processing

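Under every alternative run, 0 TRAF members and 0 list genes passed limma. Of all probe sets 0 passed, also without each array in turn (0 to 0), except with a random replicate block, where 1 passed. With a fixed replicate block 0 probe sets and 0 members passed, 1189 probe sets had an unadjusted p under 0.05 against 198 without it, and the smallest adjusted p among the members was 0.859 (0.554 with the random block); the replicate block changed no call. That count of 198 was 300 without the filter, 66 with a filter raised to the 70th percentile, and 107 without both arrays of assay 2. Traf1 was lower under all 17 alternatives, from -3.03 with a pseudocount of 1 to -1.96 with a pseudocount of 64, and at -2.03 without wild-type array 3. Traf2 was lower under all 17, from -0.52 to -0.39, and Traf7 from -0.18 to -0.05. On the representative Traf1 and Traf2 probe sets no mutant array reached a wild-type array. Leaving out arrays or changing the pseudocount could therefore not turn their sign. The filter and block settings cannot change a difference, only its test. Of 102 member values under alternatives, 6 turned in sign, and this total includes those fixed outcomes. Traf5 ranged from -0.51 to 0.099 without each array in turn, positive only without mutant array 1, and Tank was at 0.043 without both arrays of assay 3. Traf6 ranged from -0.13 (without wild-type array 2) to 0.15 without each array in turn, with -0.063 without mutant array 2, and was at -0.21 without both arrays of assay 2 and -0.038 as the mean of its kept probe sets. The causes were not tested. In alternatives chosen after seeing the data, the members without overlap numbered 2 to 4 without each array in turn, 4 without both arrays of assay 1, and 2 with quantile normalization. Those lower in every remaining pair numbered 5 without both arrays of assay 2, against 3. Both outcomes come more easily with fewer arrays or pairs, and the share of all genes was not counted for these sets. Signal over background limits Traf4, the second Traf5 probe set and the 2 Traf6 probe sets below the filter, for which no difference could be read.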
